A study of Mus musculus with 2 samples.

Results

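The transcription factor genes Pou2f3, Spib, Gfi1b, Sox2, Prox1 and Hes6, a listed set of 6 genes, were followed through sorted taste cells of the mouse tongue. Gfi1b, a zinc-finger repressor known from blood and tuft cells, has no row in the tables used here and was not analysed, which says nothing of its expression. The other 5 have a row in both tables, among 21888 genes listed in either. Cells were sorted by GFP from adult α-gustducin-GFP mice on a C57BL/6J background, whose fluorescence reports the taste G protein gene Gnat3, and each cell's RNA was counted per gene after capture on the BD Rhapsody system. The sample labelled FP holds cells of the fungiform papillae and the sample labelled CV cells of the circumvallate papilla, 1 library each, with the reporter in both and no other treatment. The sources used here do not give the number of animals behind each library, and no difference between papillae has a replicate check.

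There were 29 barcodes in the FP table and 61 in that of CV. Those with more than 500 genes and with Gnat3 counts above a minimum were kept as taste cells, 21 in FP and 32 in CV. The kept cells summed to 22646953 counts in FP and 29535917 in CV. Single kept cells ranged from 193718 to 3190340 counts in FP and from 32726 to 3447628 in CV, and their median number of detected genes was 6480 and 5524. No barcode was shared between the libraries. In CV, 4 shallow kept barcodes of 730 to 1444 genes have numbers adjoining that of a kept cell with 7498 genes. None of the 5 genes reached 50 CPM in any of them, so they lower the shares of CV cells given below. Only the Pou2f3 share is also given without them. The labelled cell type was checked against its markers. CPM stands for counts per 1000000 counts of a cell or pool. The 9 type II taste cell genes with a row summed to 22241 CPM in FP and 18700 in CV. Gnat3, whose minimum had selected the cells, gave 5223 and 4372 CPM of these sums, a part that is no check. Calhm1, the channel through which type II cells release ATP, was at only 0.309 and 12 CPM. It was on in 0 FP and 1 CV cells. Pooled over kept cells, type III, type I, immune and fibroblast marker lists each summed to at most 56.6 CPM in either library. Single cells held more. The type III sum, over the 6 of 9 markers with a row, ran from 0 through a median of 14.8 to 621 CPM in CV cells. The type I sum reached 161 CPM in FP cells and 150 CPM in CV cells, and the immune sum 180 CPM in CV cells. The keratinocyte list summed to 125 CPM in FP and 0.948 in CV. Of the FP barcodes outside the kept set, 5 were keratinocyte-like by their keratins, and 0 of the CV barcodes were. These 5 serve below as barcodes of another kind to set beside the kept cells. Whether such cells lack each of the 5 genes was not known beforehand, and their part in the FP levels was not tested.

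Type II taste cells detect sweet, umami and bitter compounds through G-protein-coupled receptors and a shared cascade of Gnat3, Plcb2, Itpr3 and Trpm5. Tas1r3 pairs with Tas1r2 in the sweet receptor and with Tas1r1 in the umami receptor, and the Tas2r genes encode bitter receptors. Pou2f3, an octamer-binding POU factor also called Skn-1a, is required for these cells to form and for the tuft cells of other epithelia. Spib is an Ets family factor best known from B cells and from the M cells over lymphoid tissue. Sox2 is an HMG-box factor of taste bud progenitors that taste bud formation depends on. Prox1 is a homeobox factor known for lymphatic endothelium and present in taste buds. Hes6 is a bHLH factor of the Hes family that counters Hes1 and accompanies differentiation in Notch-governed lineages.

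Pou2f3 (chr9:43123927-43205755, GRCm38.p6) was the member found on in the most cells of each library, where on means 50 CPM or more in that cell. In the 21 FP cells it ran from 0 through a median of 256 to 1049 CPM, and in the 32 CV cells from 0 through 40.4 to 1185 CPM. The ranges overlapped almost whole, and the FP cells had the higher median. Pou2f3 was on in 15 of 21 FP cells (71.4%, exact 95% interval 47.8 to 88.7%) and in 14 of 32 CV cells (43.8%, 26.4 to 62.3%). The cells fell on 2 sides of a gap, since in FP the lowest on cell had 122 CPM and the highest off cell 17.3 CPM, and in CV these were 131 and 47.8 CPM. In the 5 keratinocyte-like barcodes, of median 1944 genes, Pou2f3 had a median of 4.66 CPM and a maximum of 29.6 CPM, and it was on in 0 of 5. The pooled level over kept cells was 404 CPM in FP (396 to 413) and 350 in CV (343 to 357), a ratio of 1.15 (1.12 to 1.19).

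The share of CV cells with Pou2f3 on moved with the number of genes detected. Among kept cells with more than 3000 genes 15 of 19 in FP (78.9%) and 14 of 21 in CV (66.7%) had it on. Among kept cells with at most 3000 genes none of 2 in FP and 0 of 11 in CV did, which allows a share of up to 27.3% in CV with 3 cells as the floor. Without the 4 shallow barcodes named above, the CV share was 50%. The plot of Pou2f3 against genes per cell shows the shallow cells on the left, nearly all from CV. Over 21 FP and 32 CV cells, Pearson's r between log2(CPM + 10) of Pou2f3 and genes per cell was 0.73 and 0.71, a description of cells that share a library.

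**Figure D1:**
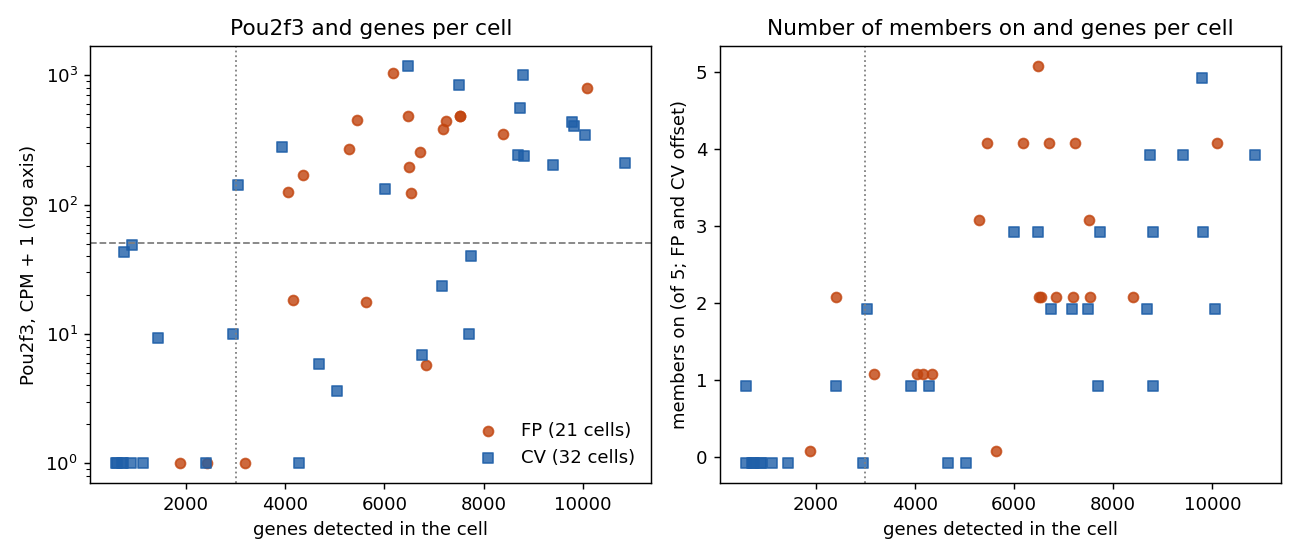
Left, Pou2f3 (CPM + 1, log axis) against the number of genes detected in each kept cell; right, the number of the 5 members on at 50 CPM or more against the same axis. Circles are FP cells and squares CV cells, the dashed line marks 50 CPM and the dotted line 3000 genes, and the 11 CV cells at or left of 3000 genes all lie under the dashed line.

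In FP, cells with Pou2f3 off held Plcb2 and Gnb3 at levels like those of cells with it on, while Trpm5, Gng13, Itpr3, Rgs21 and Ovol3 had lower medians in the off cells of both libraries. In the 6 FP cells with Pou2f3 off, Plcb2, the phospholipase of the cascade, ran from 1759 through 2348 to 5248 CPM, and in the 15 with it on from 237 through 2772 to 7137 CPM. Gnb3, the β subunit, had medians of 7003 and 5922 CPM in the same FP groups. Trpm5, the cation channel that depolarises the cell, had medians of 331 and 1997 CPM there, with 4 of 6 and 14 of 15 cells on. In CV, Trpm5 had medians of 1360 CPM in the 18 Pou2f3-off cells and 1672 CPM in the 14 on cells. Gng13, the γ subunit, had CV medians of 1419 CPM with Pou2f3 off and 4139 CPM with it on, Itpr3 of 14.8 and 507 CPM, and Rgs21 of 0 and 105 CPM. Ovol3 was on in 8 of the 18 off cells of CV and 13 of the 14 on cells, with medians of 16.8 and 865 CPM. The pooled CV levels did not follow these medians for Itpr3, at 667 CPM in off and 599 CPM in on cells, or Ovol3, at 967 and 880 CPM. In FP the Rgs21 medians were close, at 117 CPM in off and 129 CPM in on cells. Its pooled FP level was higher in the off cells, at 451 against 165 CPM. The Gnat3 minimum that kept the cells fixes part of this, and the off cells were shallower, with medians of 3672 and 1924 genes against 6535 and 8769. Among FP cells, the highest Pou2f3 level of 1049 CPM stood in a cell with Tas1r1 at 5415 CPM and Trpm5 at 10.5 CPM.

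Pou2f3 acts on the octamer motif with coactivators, and the main one in tuft cells is encoded by 1810046K07Rik, also named Pou2af2. 1810046K07Rik was pooled at 521 CPM in FP and 498 CPM in CV, on in 16 of 21 and 20 of 32 cells. Pou2f3 was on in 12 of the 16 and 12 of the 20, beside 15 of all 21 and 14 of all 32. In Pou2f3-on and Pou2f3-off cells 1810046K07Rik was pooled at 536 and 420 CPM in FP and at 503 and 481 CPM in CV. Its medians there were 445 and 236 CPM in FP and 358 and 6.77 CPM in CV. 1810046K07Rik reached a median of only 0.735 CPM in keratinocyte-like barcodes. Gm684 stood at 108 and 99.0 CPM and Colca2, the second coactivator gene of this family, at 15.3 and 21.5 CPM. RefSeq gives Gm684 as a synonym of Colca2, so how reads were shared between these rows is uncertain. Pou2f1, a POU relative expressed in many tissues, stood at 74.6 CPM in FP and 32.1 CPM in CV. Of the 5 genes with a row in the list of POU relatives and coactivators, 4 reached 10 CPM in either library. Of these 4, 1 was higher by 2-fold or more in FP and 0 in CV. Among all 10918 genes that reached 10 CPM in either library, 17% were that much higher in FP and 21% in CV.

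The octamer ATGCAAAT was looked for on both strands in RefSeq promoters, from 250 bases before to 50 after each start. It occurs in 1.74% of 32851 promoters. Of 8 type II marker genes with an entry 2 hold it, Itpr3 and Rgs21, and of the coactivator genes 1810046K07Rik holds it on each strand. None of 4 members with an entry (Spib, Sox2, Prox1 and Hes6), 3 Tas1r genes or 4 genes most like Pou2f3 holds these letters. The Ets motif GAGGAAGT, found in 3.2% of all promoters and not overlapping the octamer in these genes, was in none of them. A match is a description of the sequence, and no binding was measured. The 250 bases before each start are shown 5′ to 3′ on the gene's strand, with the octamer or its reverse complement in capitals, because these are the promoters among those searched that hold it.
Itpr3, the calcium release channel of the cascade, at chr17:27057054-27057303 (+ strand): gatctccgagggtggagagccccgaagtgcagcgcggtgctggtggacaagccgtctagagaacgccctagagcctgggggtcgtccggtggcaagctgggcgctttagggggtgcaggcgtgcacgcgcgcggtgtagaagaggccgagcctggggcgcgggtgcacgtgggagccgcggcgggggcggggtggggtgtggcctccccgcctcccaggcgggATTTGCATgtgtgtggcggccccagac
Rgs21, a regulator of G protein signalling in taste cells, at chr1:144567668-144567917 (- strand): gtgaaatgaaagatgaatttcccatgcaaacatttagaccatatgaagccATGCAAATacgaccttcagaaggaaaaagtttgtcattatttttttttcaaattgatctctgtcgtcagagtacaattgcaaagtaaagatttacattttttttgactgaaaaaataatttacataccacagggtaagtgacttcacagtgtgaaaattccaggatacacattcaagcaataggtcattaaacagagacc
1810046K07Rik, the coactivator gene, at chr9:51328919-51329168 (- strand): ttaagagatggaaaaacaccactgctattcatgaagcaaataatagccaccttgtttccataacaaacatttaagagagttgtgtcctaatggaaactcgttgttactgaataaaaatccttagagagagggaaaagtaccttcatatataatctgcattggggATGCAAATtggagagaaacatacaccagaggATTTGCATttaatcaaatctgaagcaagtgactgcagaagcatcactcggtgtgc
Itpr3 stood at 651 CPM in the FP pool and 614 CPM in the CV pool. Cells with Pou2f3 on had Itpr3 on in 14 of 15 cases in FP and 13 of 14 in CV, and cells with Pou2f3 off in 4 of 6 and 8 of 18. Rgs21 was on in 11 of 15 and 9 of 14 cells with Pou2f3 on and in 3 of 6 and 4 of 18 with it off. The pooled FP level of Rgs21 was higher in the off cells, as given above. In CV the Pou2f3-off cells had the low median of 1924 genes given above, and depth and Pou2f3 cannot be told apart there.

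Spib (chr7:44525995-44532087) differed most between the papillae on pooled counts. Sox2 was further apart on means of cell CPMs, with log2 ratios of FP over CV of 2.1 against -1.36 for Spib, and after thinning to a common depth, with 1.86 against -1.54. In FP cells Spib ran from 0 through a median of 0 to 240 CPM, and in CV cells from 0 through 5.83 to 515 CPM. Spib was on in 14.3% of FP cells (3 of 21, 3.05 to 36.3%) and in 28.1% of those of CV (9 of 32, 13.7 to 46.7%). The pooled level was 33.7 CPM in FP (31.3 to 36.2) and 102 CPM in CV (98.7 to 106), 3.04-fold higher in CV (2.80 to 3.29 by counting error). In 5 keratinocyte-like barcodes Spib reached at most 0.477 CPM. With 50 in place of 10 added before the logarithm, Spib no longer reached 2-fold, and the share of all genes that did fell from 38% to 6.90%.

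Of the 5 members 1, Spib, was at least 2-fold apart between FP and CV on the log2(CPM + 10) scale. Of the 10918 genes that reached 10 CPM in at least 1 library, 38% were that far apart, 17% with the higher level in FP and 21% with it in CV, and their median log2 ratio was -0.05. The members' 1 of 5 is thus no larger a share than that of all genes. Over all barcodes, which add 8 in FP, 5 of them keratinocyte-like, and 29 in CV with a median of 92.5% mitochondrial counts, Pou2f3 stood at 266 CPM against 316 CPM in CV, Spib at 22 against 111 CPM, Prox1 at 201 against 193 CPM and Hes6 at 132 against 183 CPM. Pou2f3 then was the lower in FP, with a ratio of 0.840 (0.818 to 0.864).

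Ets relatives of Spib went both ways between the papillae, as did genes at large. Elf3, an epithelial Ets factor, stood at 542 CPM (20 of 21 cells on) in FP and 276 CPM (17 of 32) in CV. Ehf, another epithelial Ets factor, stood at 90.7 and 342 CPM, on in 5 of 21 and 17 of 32 cells. Etv1 was on in 3 FP cells, at 177, 326 and 646 CPM, and in 0 CV cells. Those were the 3 FP cells with the umami subunit Tas1r1 on. Etv5 stood at 5.21 and 18.1 CPM. Of 8 Ets genes with a row, 6 reached 10 CPM. Of those, 2 were 2-fold or more higher in FP and 1 in CV, beside 17% and 21% of all genes.

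Immune markers were low beside Spib. Ptprc and Cd74 were at 0 in both libraries, and the immune list summed to 0.221 CPM in FP and 12.3 CPM in CV. In the 9 CV cells with Spib on the list ran from 0 through a median of 20.7 to 180 CPM, and in the 23 others from 0 through 0 to 23.8 CPM. The 180 CPM came from Lyz2 in 1 cell, which held Spib at 507 CPM. The part of these counts in the CV level of Spib was not tested.

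Sox2 (chr3:34649995-34652461, inside the long noncoding gene Sox2ot on the same strand) was on in few cells of either library. It ran from 0 through a median of 2.04 to 1031 CPM in FP cells and from 0 through 0 to 325 CPM in CV cells, on in 7 of 21 (33.3%, 14.6 to 57%) and 5 of 32 (15.6%, 5.28 to 32.8%). Its pooled level was 118 CPM in FP and 65.3 CPM in CV, a ratio of 1.81 (1.71 to 1.92 by counting error). A single CV cell, with 10859 genes the deepest by that measure, gave 58% of the CV counts. The same cell held Lgr5, a progenitor receptor, at 117 CPM, Entpd2, the type I ectonucleotidase, at 150 CPM and Otop1, the type III proton channel, at 184 CPM. Leaving out the highest cell of each library moved the log2 ratio from 0.77 to 1.51. Sox2ot itself had 29 counts in FP and 251 in CV, beside 2679 and 1930 of Sox2, and was seen in 1 of the 7 FP cells and all 5 CV cells with Sox2 on. How reads in the overlap were assigned was not tested.

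Over all barcodes Sox2 stood at 205 CPM in FP and 51.4 CPM in CV, 3.99-fold apart (3.79 to 4.20). The FP gain came from 1 barcode outside the kept set with Sox2 at 1304 CPM and 3 of 6 keratinocyte markers on, which held 58.4% of all FP Sox2 counts. Among the 5 keratinocyte-like barcodes 1 had Sox2 on, at 133 CPM. In kept cells Trp63, a factor of basal epithelium, stood at 0.0442 CPM in FP and 0 in CV, and Krt5 and Krt14, the basal keratins, at most at 6.05 CPM. Sox21, a relative, stood at 14.3 and 61.9 CPM. Klf4, a factor of differentiating epithelium, stood at 591 and 277 CPM, with a median of 2348 CPM in keratinocyte-like barcodes. Klf5 stood at 203 and 255 CPM and Ptch1, the Hedgehog receptor, at 26 and 15 CPM. Of 12 genes with a row in this list, 7 reached 10 CPM. Of those, 1 was 2-fold or more higher in FP and 4 in CV, beside 17% and 21% of all genes. How far keratinocyte RNA in FP bears on Klf4 was not tested.

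Prox1 (chr1:190118035-190170827, overlapping the antisense gene Prox1os, from which its reads cannot be told apart if counting ignored strand) ran from 0 through a median of 102 to 1277 CPM in FP cells and from 0 through 2.88 to 798 CPM in CV cells. Prox1 was on in 57.1% of FP cells (12 of 21, 34 to 78.2%) and 31.2% of those of CV (10 of 32, 16.1 to 50%). Of cells with more than 3000 genes, it was on in 11 of 19 and 10 of 21. The pooled level was 308 CPM in FP and 228 CPM in CV, a ratio of 1.35 (1.31 to 1.40). The mean of cell CPMs, which weights cells equally, was 291 in FP and 108 in CV, so the gap was wider by cells than by counts. Pecam1, the endothelial marker with a row, was at 0 in FP and at 36.3 CPM in CV, where it was on in 2 of the 10 CV cells with Prox1 on. In 5 keratinocyte-like barcodes Prox1 reached at most 0.981 CPM.

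Hes6 (chr1:91411483-91414038) was pooled at 192 CPM against 196 CPM in CV, a ratio of 0.977 (0.939 to 1.02). It ran from 0 through a median of 89.2 to 742 CPM in FP cells and from 0 through 2.46 to 1750 CPM in CV cells, on in 12 of 21 (57.1%) and 12 of 32 (37.5%, 21.1 to 56.3%). The CV cell at 1750 CPM gave 36% of the CV counts, and it was also the CV cell with the highest Pou2f3, at 1185 CPM. Of cells with more than 3000 genes, Hes6 was on in 11 of 19 and 11 of 21. The strip plot of cell values shows the same medians. For every member it has cells near 0 and cells above 50 CPM, with some in between.

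**Figure D2:**
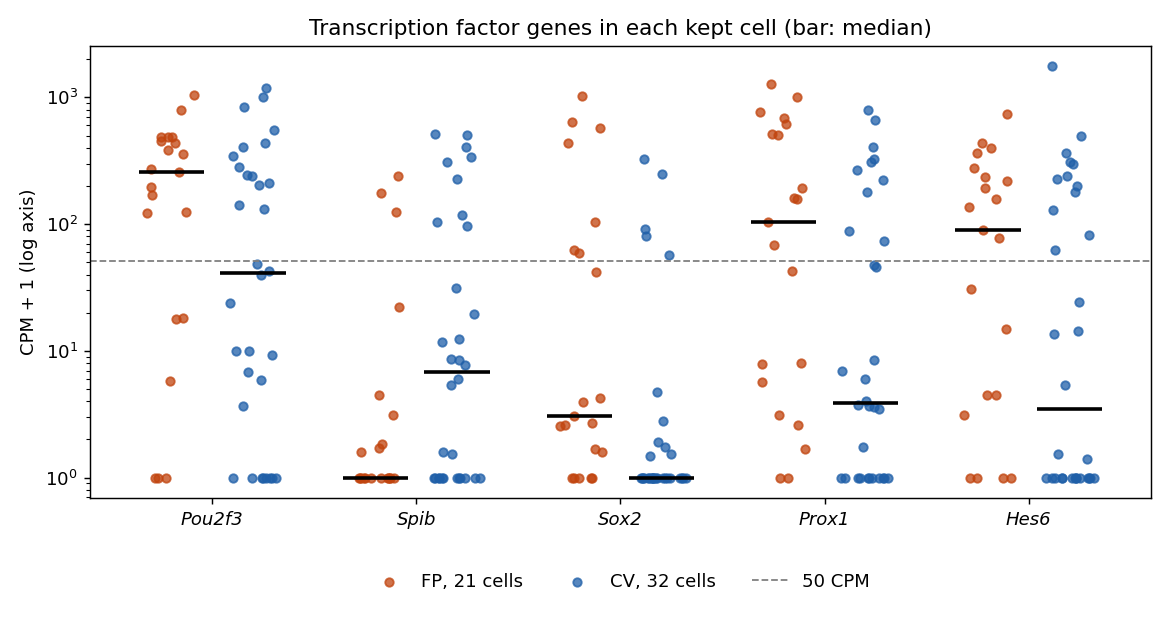
CPM + 1 on a log axis of the 5 genes in each kept cell, FP (21 cells) beside CV (32 cells). Each point is a cell, the black bar is the median and the dashed line marks 50 CPM; FP medians of Pou2f3, Prox1 and Hes6 (256, 102 and 89.2 CPM) lie above the line and those of CV below it.

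The Notch pathway and relatives of Hes6 were read from a list of 15 genes. Jag2, a ligand, stood at 157 CPM in FP and 133 CPM in CV, on in 11 of 21 and 13 of 32 cells. Dll3, an inhibitory ligand, stood at 126 and 92.6 CPM. Lfng, a glycosyltransferase that modifies Notch, stood at 99.2 CPM in FP and 13.8 CPM in CV, on in 6 and 1 cells. Dll1, a ligand singled out after its values were seen, stood at 62.9 and 0.0677 CPM and was on in 6 FP cells, at 52.8 to 467 CPM, each with Pou2f3 on. Notch1 stood at 7.59 and 0.846 CPM. Of the 15 genes, all with a row, 10 reached 10 CPM. Of those, 4 were 2-fold or more higher in FP and 3 in CV, beside 17% and 21% of all genes.

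The remaining lists gave partners of Gfi1b and regulators of neighbouring lineages. Kdm1a, the demethylase of the Gfi1b complex, stood at 50.3 CPM against 146 CPM in CV, and Hdac1 at 101 and 98.7 CPM. Zfp217 stood at 51.4 and 78.5 CPM and the corepressor Rcor1 at 40.7 and 14.3 CPM. Of 6 such genes with a row, all 6 reached 10 CPM. Of those, 1 was 2-fold or more higher in FP and 1 in CV, beside 17% and 21% of all genes. Eya1, a transcriptional coactivator, was on in 14 FP cells and 20 CV cells, at 438 and 522 CPM. Runx1 stood at 8.96 and 57.8 CPM and Ikzf2 at 7.02 and 22.6 CPM. Of 9 genes with a row in the list of tuft and type III lineage regulators, 4 reached 10 CPM. Of those, 0 were 2-fold or more higher in FP and 1 in CV, beside the same 17% and 21%.

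Cells were then sorted by receptor. In FP, Tas1r3 was on in 8 of 21 cells, 4 of them with a Tas2r gene on as well; 9 cells had only Tas2r genes on and 4 had neither. In CV, Tas1r3 was on in 7 of 32 cells, every one of them with a Tas2r gene on. Another 21 had only Tas2r genes on and 4 had neither. Without the 4 shallow barcodes of adjoining numbers, Tas1r3 was on in 6 CV cells. The 4 CV cells with neither were shallow, with a median of 733 genes, and 3 of them had no member on. The CV library held no keratinocyte-like barcode in which stray receptor counts could be read. Outside the kept set, a CV barcode of 93.5% mitochondrial counts with Gnat3 at 0 held Tas2r genes summing to 896 CPM. Another, of 92.7% and with Gnat3 at 8.87 CPM, held 1304 CPM, while many others had no Tas2r gene on. Whether stray counts add to the Tas2r genes of kept CV cells was not tested.

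**Figure D3:**
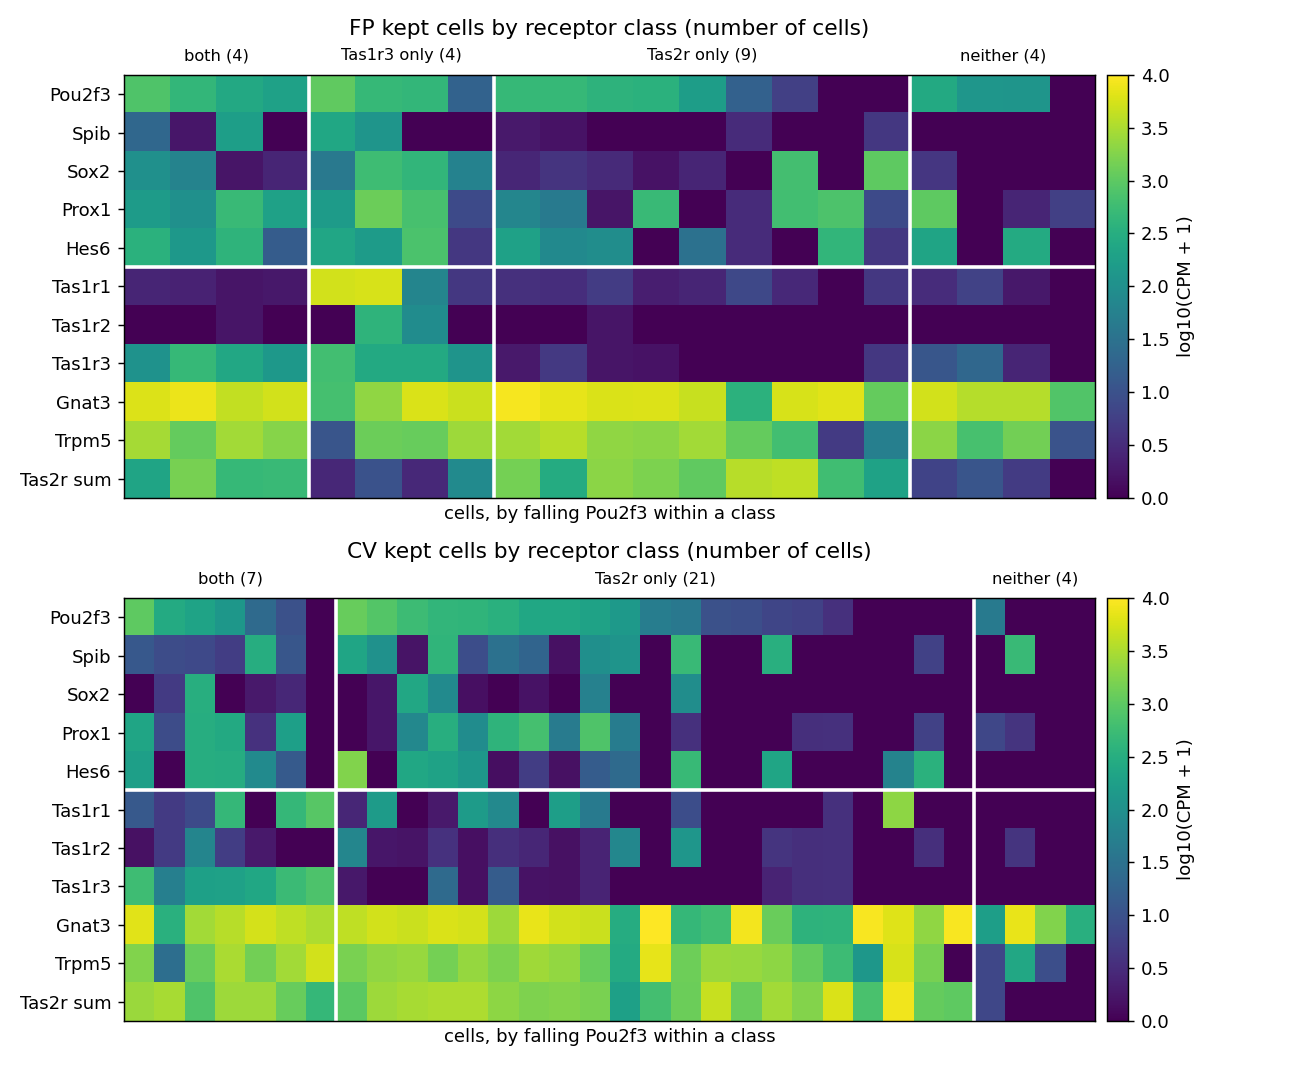
log10(CPM + 1) of the 5 members (above the white line), the Tas1r genes, Gnat3, Trpm5 and the sum of the Tas2r genes in each kept FP cell (top, 21 columns) and CV cell (bottom, 32 columns), grouped by receptor class and ordered by Pou2f3 within a class. In FP the 3 cells with Spib on (240, 176 and 123 CPM) lie in the classes with Tas1r3, and in CV 8 of 9 lie outside them.

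In FP, cells with Tas1r3 on had more members on than cells without. The median was 4 of 5 members in the 8 Tas1r3-on cells and 2 in the 13 others, whose median gene numbers were 6487 and 5627. Spib ran from 0 through 10.9 to 240 CPM in the Tas1r3-on cells and from 0 through 0 to 3.48 CPM in the others. It was on in 3 of 8 (37.5%, 8.52 to 75.5%) against 0 of 13, which allows a share of up to 23.1%. The off cells had 4 Spib counts in all, and the pooled ratio was 189 with a counting interval of 73.6 to 696. The 3 cells are few, and 5 of the 8 Tas1r3-on cells were below 50 CPM.

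Hes6 was on in 6 of 8 Tas1r3-on FP cells and 6 of 13 others, and its pooled level was 280 CPM against 103 CPM, 2.73-fold higher (2.55 to 2.92). It ran from 3.45 through 195 to 742 CPM in the first and from 0 through 29.6 to 432 CPM in the second, so the cells overlapped. Pou2f3 was on in 7 of 8 and 8 of 13, with medians of 444 and 124 CPM and a pooled ratio of 1.96 (1.88 to 2.05). Prox1 was on in 7 of 8 (87.5%, 47.3 to 99.7%) and 5 of 13 (38.5%, 13.9 to 68.4%), with medians of 174 and 6.97 CPM and a pooled ratio of 1.5 (1.43 to 1.58). On the log2 scale that Prox1 ratio of 0.57 turned to -0.05 with Tas1r3 on at 1 count, and it was 1.29 at 200 CPM and 1.56 without the Gnat3 minimum. Sox2 was on in 5 of 8 and 2 of 13, with medians of 59.9 and 1.56 CPM, yet the highest FP value of 1031 CPM was in a Tas1r3-off cell. The pooled Sox2 ratio was 1.72 (1.59 to 1.87), and it turned to a log2 ratio of -0.60 when the Gnat3 minimum was dropped and to -1.26 when 1 count sufficed for Tas1r3. In all, 2 of 5 members, Spib and Hes6, were at least 2-fold higher in Tas1r3-on FP cells. Over 9859 genes 49.8% were at least 2-fold apart in either direction and 25.1% were higher in Tas1r3-on cells.

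In CV the pooled levels of Pou2f3, Prox1 and Hes6 were close in cells with and without Tas1r3, but their cell medians were not. Of the 7 Tas1r3-on and 25 Tas1r3-off cells, Pou2f3 was on in 4 and 10, Prox1 in 4 and 6 and Hes6 in 4 and 8, with pooled ratios of 0.926 (0.886 to 0.967), 0.927 (0.879 to 0.978) and 1.01 (0.951 to 1.07). The medians were 131 against 38.9 CPM for Pou2f3, 178 against 2.60 CPM for Prox1 and 80.9 against 0.407 CPM for Hes6, each higher in the Tas1r3-on cells. The pooled ratios also moved with the class rule. That of Pou2f3 went from -0.11 on the log2 scale to -1.12 with the highest cell of each class left out and to 0.64 with any Tas1r gene on. That of Prox1 went from -0.10 to 3.16 with Tas1r3 on at 1 count and to -0.97 with any Tas1r gene on, and that of Hes6 from 0.01 to 1.10 with any Tas1r gene on and to -0.95 with Tas1r3 on at 200 CPM. Spib was on in 1 of 7 (14.3%, 0.361 to 57.9%) and 8 of 25 (32%, 14.9 to 53.5%), at pooled levels of 46.4 and 125 CPM, so it was 2.70-fold lower in Tas1r3-on cells. In FP the direction was the opposite, and the difference between the papillae was not tested. Without the Gnat3 minimum the CV log2 ratio of Spib went from -1.26 to 0.16, since 1 barcode then entered with Tas1r3 at 632 CPM, Tas1r2 at 2211 CPM and Spib at 281 CPM. Sox2 stood at 130 and 38.6 CPM, but on in 1 of 7 and 4 of 25 cells. Leaving out the highest cell of each class moved its log2 ratio from 1.53 to -1.50, so 1 cell sets that direction. Spib and Sox2 made 2 of 5 members at least 2-fold apart, where 51.4% of 10527 genes were.

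By bitter receptors, 13 FP cells had a Tas2r gene on and 8 did not. Spib, Sox2 and Prox1 were lower in the Tas2r-on cells by 2-fold or more, at 20.5 against 65.5 CPM, 87.0 against 194 CPM and 218 against 527 CPM. Pou2f3 stood at 401 and 411 CPM and Hes6 at 160 and 269 CPM. So 3 of 5 members were 2-fold apart, where 55.6% of 9717 genes were, 34.5% higher in Tas2r-on cells and 21.1% in the others. In CV 28 cells had a Tas2r gene on and 4 shallow cells did not, and all 5 members were 2-fold apart, as were 92.8% of 9594 genes, 86% higher in Tas2r-on cells and 6.79% in the others. The 4 cells had 7 counts of Pou2f3, 2 of Prox1 and 0 of Sox2 and Hes6, while 1 of them held Spib at 515 CPM.

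**Figure D4:**
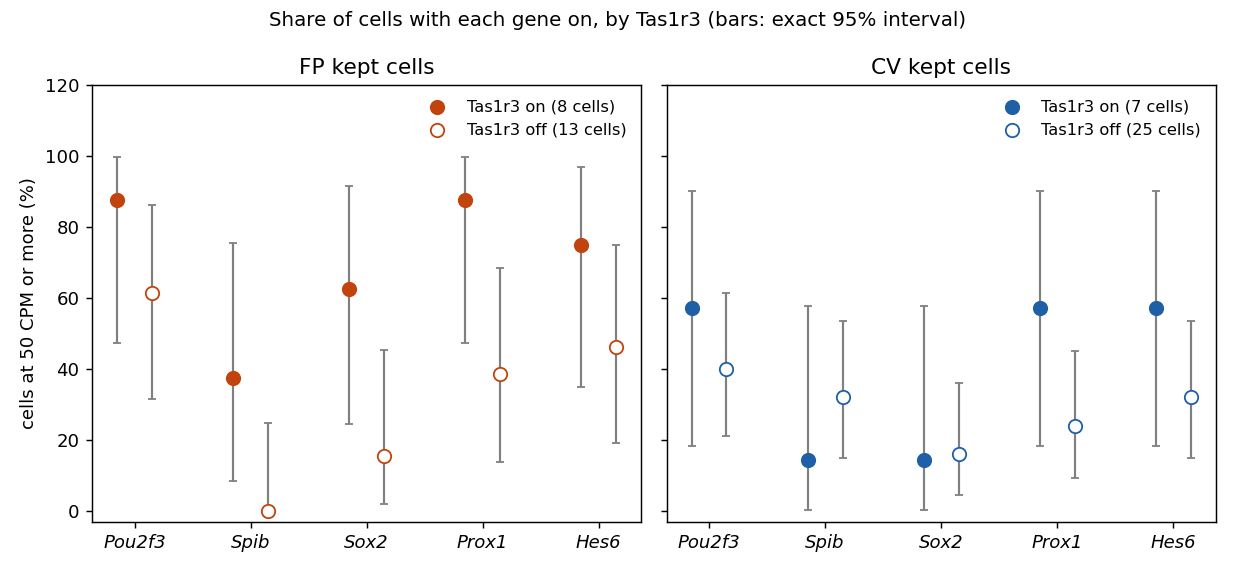
Share of kept cells (%) with each gene at 50 CPM or more, in Tas1r3-on (filled) and Tas1r3-off (open) cells of FP (8 and 13 cells) and CV (7 and 25 cells); bars are exact 95% intervals of counting error. In FP all 5 filled points lie above the open ones, Spib at 37.5% against 0%, while in CV Spib lies at 14.3% against 32%.

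The comparison was repeated in cells with more than 3000 genes, a limit chosen after seeing the data. In FP, 8 such cells had Tas1r3 on and 11 did not, with medians of 6487 and 6535 genes. Spib was on in 3 of 8 and 0 of 11, Sox2 in 5 of 8 and 2 of 11, Prox1 in 7 of 8 and 4 of 11, Hes6 in 6 of 8 and 5 of 11 and Pou2f3 in 7 of 8 and 8 of 11. In CV, 6 such cells had Tas1r3 on and 15 did not, and Pou2f3 was on in 4 of 6 and 10 of 15, a share of 66.7% in each. Spib was on in 1 of 6 and 7 of 15, Prox1 in 4 of 6 and 6 of 15 and Hes6 in 4 of 6 and 7 of 15.

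The receptor partners of Tas1r3 were examined in turn. In CV, the sweet subunit Tas1r2 was on in 4 cells and Spib in 3 of them, at 117, 227 and 507 CPM, against 6 of the 28 cells without Tas1r2 (21.4%, 8.30 to 41%). In 1 of these 4 cells Tas1r2 stood at 70.1 CPM in a shallow barcode of 42809 counts, 79% of them ribosomal RNA, where the Spib level of 117 CPM rests on 5 counts. Of CV cells with more than 3000 genes, Spib was on in 3 of 4 with Tas1r2 on and in 5 of 17 with it off (29.4%, 10.3 to 56%). The barcode left out by the Gnat3 minimum with Tas1r2 at 2211 CPM also had Pou2f3 at 370 CPM, Prox1 at 125 CPM and Hes6 at 202 CPM, with Sox2 at 0. Another CV barcode left out, of 663 genes, held Tas1r2 at 4123 CPM and all 5 members at 0. The umami subunit Tas1r1 was on in 8 CV cells, and in these Sox2 ran from 0 through 0 to 1.79 CPM and was on in 0 of 8, a share of up to 37.5%. It was on in 5 of the 24 cells of that library with Tas1r1 off. In FP, by contrast, Sox2 was on in 2 of the 3 cells with Tas1r1 on, at 433 and 574 CPM. Pou2f3, Prox1 and Hes6 were on in all 3 of these FP cells, with Pou2f3 at 448, 486 and 1049 CPM.

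Lfng and Jag2 were set against Tas1r3 after their values were seen. Lfng was on in 5 of 8 Tas1r3-on FP cells and 1 of 13 others. Jag2 was on in 0 of 7 Tas1r3-on CV cells and in 13 of 25 others, and in 4 of 8 and 7 of 13 FP cells. How many of all genes split as far by cells on was not counted. On pooled levels 49.8% of genes were at least 2-fold apart between these FP classes and 51.4% between those of CV.

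Members were on together in most cells that had any. In FP 2 cells had 0 members on, 4 had 1, 7 had 2, 2 had 3, 5 had 4 and 1 had all 5. In CV 11 cells had 0, 6 had 1, 6 had 2, 5 had 3, 3 had 4 and 1 had all 5, and 9 of the 11 CV cells with at most 3000 genes had none. Pou2f3 was on in 10 of the 12 FP cells and 9 of the 10 CV cells with Prox1 on, against 8.57 and 4.38 cells if the genes were independent within a library. Pou2f3 was on in 11 of 12 FP cells with Hes6 on and in 7 of 12 CV cells, against 8.57 and 5.25 if independent. All 3 FP cells with Spib on had Pou2f3, Prox1 and Hes6 on, against 2.14, 1.71 and 1.71 cells if independent. In CV, Spib went with Pou2f3 in 5 of 9 cells and with Prox1 in 2 of 9, where 3.94 and 2.81 would be shared if independent. In CV, Sox2 was on with Pou2f3 in 4 of 5 cells, against 2.19 if independent. In FP it was on with Pou2f3 in 4 of 7, against 5. The 10 pairs share cells and depth, so these counts are descriptions. Over 19 FP cells with more than 3000 genes Pearson's r between Pou2f3 and Hes6 was 0.70, and over 21 such CV cells it was 0.11.

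Genes most like each member over cells included many expressed in most tissues. For Pou2f3, among 1743 genes, they were Ywhaq (mean r of the 2 libraries 0.78), Hepacam2 (0.75), Pdia3 (0.74), Atrx (0.72) and Bsg (0.72), where the median gene had 0.37. Hepacam2, a cell adhesion gene known from tuft cells, stood at 915 CPM against 513 CPM in CV, and it was also among the 5 genes most like Hes6 (0.59). The others for Hes6 were Edf1 (0.61), Scp2 (0.61), Psmb7 (0.59) and Tmem59 (0.58), with a median gene at 0.25. For Prox1 they were Psma6 (0.71), Cops9 (0.70), Arl6ip1 (0.67), Egln3 (0.66) and Srp14 (0.65), with a median gene at 0.30. These r values are over 21 FP and 32 CV cells that share a library and differ in depth. Spib and Sox2 were on in too few cells of at least 1 library to be ranked.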

How the data were processed

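The authors deposited counts, whole numbers for each gene in each cell barcode, and the values show no normalization. Seurat 2.3.4, Bowtie2 2.3.4.1, cutadapt 2.10 and build mm10 are named, per the submitters' processing notes. Per the series design, the authors aligned reads to mouse reference RNA, chose barcodes with DropletUtils and adjusted the counts by distribution-based error correction. Whether copies made by PCR were collapsed to molecules, and whether counting used strand, is not given in the sources used here. Every interval and floor covers counting error at most. If copies were not collapsed, counts are not independent, and the intervals of pooled levels and ratios are too narrow even for that.

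Kept cells had more than 500 genes and ln(1 + 10000 × Gnat3/total) above 0.9, with the base of the authors' logarithm read as the natural one. No mitochondrial or ribosomal RNA limit was set and doublets were not called. Counts of kept cells were pooled per library and given as CPM, counts per 1000000. Intervals are at 95%: exact Poisson for pooled levels, conditional binomial (exact) for ratios, and Clopper-Pearson for the share of cells. Where a share is 0, 3 cells of the total serve as its floor. A 2-fold difference was read on the log2(CPM + 10) scale, over genes with at least 10 CPM in either group. With 1 library per papilla there was no test. The pooled sums and calls were tested on simulated counts with Poisson noise and no other spread between cells, unlike these data. The interval formulas were checked on set inputs only, and their coverage was not tested. Barcodes were keratinocyte-like when outside the kept set with at least 4 of 6 keratinocyte markers (Krt13, Krt76, Krt16, Krt6a, Krtdap, Lor) at 50 CPM.

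The members, gene lists and marker lists were chosen with earlier results of these data known. From each of 6 regulator lists the 4 genes with the highest pooled CPM could be named. Some genes that met this rule are not reported here, and the counts of each list include them. For likeness, genes on in at least 25% of the kept cells of both libraries were ranked by the mean of the within-library Pearson correlations of log2(CPM + 10), and the 5 highest were named. Dll1, the sequence motifs and the individual cells singled out in the text were chosen after their values were seen. Gene positions and promoter sequences are from RefSeq, GRCm38.p6 (mm10). Alternatives were other cell filters, other count totals, thinning to 71770 counts, other pseudocounts, cell means, leaving out the highest cell and other thresholds. Python 3.11.15, numpy 2.4.6, pandas 2.3.3, scipy 1.17.1 and matplotlib 3.10.9 were used.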

Additional observations from a re-analysis of the deposited data

Results flagged for a closer look

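Spib moved in opposite directions with Tas1r3 in the 2 libraries. The log2 ratio of Tas1r3-on over Tas1r3-off cells on the log2(CPM + 10) scale was 2.89 in FP and -1.26 in CV, and the difference between the papillae was not tested. Each library is 1 sample. In FP the ratio rests on 3 cells, and in CV 1 of 7 Tas1r3-on cells had Spib on. The CV value changed sign when the Gnat3 minimum was dropped.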

How the results depend on the processing

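The count of members at least 2-fold apart between FP and CV was 1. It was 2 without the Gnat3 minimum, 2 over all barcodes and 2 with the highest cell of each library left out (Spib and Sox2). It was 3 after thinning and 3 on means of cell CPMs (with Prox1 as well), and 0 with a pseudocount of 50. By Tas1r3 in FP the count was 2, and it was 4 without the Gnat3 minimum, over all barcodes, with Tas1r3 on at 1 count and with Tas1r3 on at 200 CPM, and 3 after thinning, on cell means and with limits on mitochondrial and ribosomal RNA. By Tas1r3 in CV the count was 2, and it was 1 without the Gnat3 minimum, over all barcodes, with a pseudocount of 50, at 1 count, at 200 CPM and with any Tas1r gene, 0 after thinning and on cell means, and 3 with the highest cell of each class left out (with Pou2f3 as well). Thinning left out 6 CV cells. In FP, dropping the Gnat3 minimum and taking all barcodes give the same 29 barcodes. The log2 ratio of Spib in CV turned to 0.16 without the Gnat3 minimum and 0.19 over all barcodes, and that of Sox2 to -1.50 without the highest cell, -0.50 with Tas1r3 at 1 count and -3.01 at 200 CPM. The CV share of cells with Pou2f3 on, 43.8%, was 24.6% over all barcodes, 66.7% in cells with more than 3000 genes (chosen after seeing the data) and 75.0% at 1 count. Of the alternatives to Spib's ratio between papillae, 10 of 11 stayed at least 2-fold higher in CV. The cause of these changes was not tested. The share of all genes at least 2-fold apart ran from 6.90% to 50%. No paired analysis was possible because each papilla has 1 library.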
